A study of Homo sapiens with 4 samples.

Results

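The E2F transcription factors and the retinoblastoma (pocket) proteins were examined in the established cell line MRC5, which are fibroblasts of human fetal lung. The 10 members were taken by gene symbol from the 26255 genes of each deposited file: E2F1, E2F2, E2F3, E2F4, E2F5, E2F7, E2F8, RB1, RBL1 and RBL2. The 4 libraries were 2 controls, whose treatment label says that they had none, and 2 labelled as treated with miRs (microRNAs, short RNAs that pair with messenger RNAs and lower their level). All cells are labelled as wild type (WT) and the titles give 48 h for every library. The labels neither name the microRNAs nor tell whether replicates are separate cultures, so a p-value measures only how far these libraries spread, which may be technical. The series title sets a control microRNA (NC-miR) against the miRs, and whether the controls received one cannot be told from the labels.

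E2F proteins bind DNA together with a DP partner at the promoters of genes for DNA replication and division. E2F1, E2F2 and E2F3 are known as activators that RB1 holds in check, E2F4 and E2F5 as repressors that work with the RB1 relatives RBL1 (p107) and RBL2 (p130), and E2F7 and E2F8 as atypical repressors that bind neither DP nor pocket proteins. Cyclin-dependent kinases phosphorylate the pocket proteins and release the E2Fs, which lets cells pass from G1 into S phase. In resting fibroblasts RBL2 with E2F4 and the MuvB proteins forms the DREAM complex, which silences cell cycle genes.

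Several of these genes are themselves known targets of E2F, which is why their promoters are shown. The RefSeq table used here (build GRCh38.p14) gives the 250 bases before and 50 bases after each transcription start, and held 9 such windows for the 7 members E2F1, E2F2, E2F3, E2F4, E2F7, RBL1 and RBL2. The E2F consensus was searched on both strands as TTTCCCGC, TTTGGCGC, TTTCGCGC or TTTGCCGC. A match stood in 4 of these 9 windows, 1 each of E2F1, E2F2, E2F3 and RBL1, against 3.31% of the 35116 windows of that length in the table. The sequences read along the gene's strand, with the match in capitals, so that a match on the other strand appears as its reverse complement.
E2F1, chr20:33686387-33686416, minus strand, match beginning 20 bases before the start: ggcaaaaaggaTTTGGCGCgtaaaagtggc
E2F1, chr20:33686400-33686429, minus strand, match beginning 33 bases before the start: gtggctctttcGCGGCAAAaaggatttggc
E2F2, chr1:23531257-23531286, minus strand, match beginning 42 bases before the start: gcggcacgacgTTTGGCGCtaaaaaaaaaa
E2F3, chr6:20401815-20401844, plus strand, match beginning 53 bases before the start: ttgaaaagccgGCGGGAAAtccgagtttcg
RBL1, chr20:37096005-37096034, minus strand, match beginning 26 bases before the start: cagctgcagatTTTCGCGCgctttggcgca
RBL1, chr20:37095995-37096024, minus strand, match beginning 16 bases before the start: ttttcgcgcgcTTTGGCGCaggtggttgtg

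The stretches shown for E2F1 overlap each other, as do those for RBL1. The windows of E2F4, E2F7 and RBL2 held none of these letters. The cell cycle homology region, the element that the MuvB proteins bind in promoters of mitotic genes, was searched as TTTGAA or TTCGAA on both strands and stood in windows of E2F3 and RBL2 (16.4% of all windows). The only RB1 window in the table lies 172724 bases inside the gene as GENCODE 29 draws it and was not counted. E2F5 and E2F8 had no entry.

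Stretches of the 3′ untranslated regions are shown because microRNAs were given and members of both families are textbook microRNA targets. The seeds of 3 microRNAs (bases 2 to 8 of a microRNA, in capitals) were read from the RefSeq table. They were chosen with earlier results of these data known, and nothing in the labels says that these microRNAs were used.
hsa-miR-302a-3p: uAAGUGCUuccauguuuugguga
hsa-miR-17-5p: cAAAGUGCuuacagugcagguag
hsa-miR-200c-3p: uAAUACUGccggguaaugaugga

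The first 2 seeds are shifted against each other by 1 base, so AGCACTTT matches both. The longest annotated 3′ untranslated region of each member in GENCODE 29 was searched for AGCACTT (miR-302a), GCACTTT (miR-17) and CAGTATT (miR-200c) on the transcript's strand. AGCACTT stood in 7 of the 10 members, namely E2F1, E2F2, E2F3, E2F5, E2F7, RBL1 and RBL2, and in 25.4% of the 10799 tested genes that had such a region. GCACTTT stood in 7 members, with RB1 in and E2F7 out (25.6% of those genes), and CAGTATT in 2, E2F3 and RBL1 (19.5%). E2F4 and E2F8 held none of them. E2F2 was not among the tested genes. The members' regions ran from 595 to 3450 bases, and length was not matched in these shares. Windows around AGCACTT are given for 3 of the members whose groups separate in the values that follow, with the match in capitals and the position counted from the first base of the region.
RBL2, base 694 of 1349: tgtatatttgtgatAGCACTTt
E2F1, base 511 of 1049: tgtaggacggtgagAGCACTTc
E2F7, base 448 of 2891: ggggggcgctgtctAGCACTTa

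The same letters thus stood in members that lay lower in miRs (RBL2, E2F1, RBL1) and in members that lay higher (E2F7, E2F5). Over all tested genes with an annotated region, the median log2 difference, miRs minus control, was −0.047 for genes with AGCACTT and 0.019 for those without. Their regions differed in length, with medians of 2942 and 1032 bases. The part of such sites in any member's value was not tested.

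Values are FPKM (sequenced fragments for each kilobase of a transcript, relative to library size), which allows levels to be compared between genes. Steps between low values gave each library's relative depth as 0.952, 1.11 and 0.976 for control replicate 2, miRs replicate 1 and miRs replicate 2, with control replicate 1 as 1, if libraries were scaled by their fragment totals. The miRs libraries were less alike than the controls, with Pearson's r of log2(FPKM + 1) across the tested genes, which are not independent replicates, at 0.949 against 0.985. The 10 fibroblast markers checked were at 1 FPKM or more in every library and summed to 12058 to 12949 FPKM in control and 8339 to 12894 FPKM in miRs. Both miRs libraries lay below both controls for FN1, VIM, THY1, DCN and LUM (THY1 at 406 and 335 against 188 and 175 FPKM). For S100A4 both lay above (20.7 and 34.5 against 42.1 and 70.4 FPKM). The groups of COL1A1, COL1A2, COL3A1 and PDGFRB overlapped, with COL1A1 at 2337 and 2521 against 1910 and 4742 FPKM. The sum of ACTB and GAPDH was 11145 to 11783 FPKM in control and 7758 to 8100 FPKM in miRs. The 4 endothelial and 4 blood markers were summed at or under 0.209 FPKM in each. The 7 epithelial markers summed to 28.9 to 31.8 FPKM in control and 186 to 264 FPKM in miRs. KRT5 was listed at 0 in every library and CDH1 in both miRs libraries. The part of these differences in the results for E2F and pocket protein genes was not tested.

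Of the 10 members, 9 reached a mean of 1 FPKM over the 4 libraries and were tested. In limma, on log2(FPKM + 1) with Benjamini-Hochberg adjustment over all 11860 genes tested, 0 of the 9 passed an adjusted p of 0.05. The share of all tested genes that passed was 0.245%. At an unadjusted p under 0.05 there were 4 members (RBL2, E2F1, E2F5 and E2F7), and 24.2% of all tested genes. Both miRs libraries lay above both controls in 3 members (29.5% of all tested genes), E2F4, E2F5 and E2F7, and below both controls in 3 (30.0% of all tested genes), E2F1, RBL1 and RBL2. The groups overlapped in the other 3. The counts above and below, 3 of 9 each, are close to those background shares. The median log2 difference was −0.07 over the 9 members and −0.0020 over all tested genes. The members' median turned to 0.035 without miRs replicate 1, to 0.0097 without miRs replicate 2 and to 0.022 without control replicate 1, and was −0.15 without control replicate 2. In such bulk samples a smaller share of cells with a transcript and less of it per cell cannot be told apart.

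RBL2, the pocket protein of resting cells, had the smallest p of the members. It was at 10.8 and 10.9 FPKM in the controls (replicates 1 and 2, the order used throughout) and at 6.18 and 6.48 FPKM with miRs. Each pair lay close together and the pairs did not overlap. The mean was 1.71-fold lower in miRs (log2 difference −0.69 ± 0.12 SE, adjusted p = 0.0863 in limma). The adjusted p ranged from 0.0197 to 0.665 over the alternatives and was 0.0405 when miRs replicate 1 was left out and 0.0197 when miRs replicate 2 was. In those fits, where the lone miRs library is assumed to vary like the controls, 13.9% and 31.6% of all tested genes passed.

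RBL1, the pocket protein known to accumulate in cycling cells, was at 3.71 and 3.44 FPKM in controls and 3.19 and 2.5002 FPKM with miRs (log2 difference −0.26 ± 0.17, adjusted p = 0.403 in limma). The pairs did not overlap, but the gap between the miRs libraries was about as wide as that between the groups. Leaving out miRs replicate 1 gave −0.39, and leaving out miRs replicate 2 gave −0.13. RB1, the founding tumour suppressor of the family, was at 12.3 and 9.91 FPKM in controls and 11.1 and 9.11 FPKM with miRs (log2 difference −0.12 ± 0.18, adjusted p = 0.699 in limma). Its groups overlapped, and replicate 1 was the higher library in both. Without control replicate 1 its difference was 0.02 and without miRs replicate 2 it was 0.0097.

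The 3 pocket proteins together were at 26.8 and 24.3 FPKM in controls and at 20.5 and 18.1 FPKM with miRs. RBL2 made up 40.2% and 45.0% of that sum in control and 30.1% and 35.8% in miRs, while RB1 made up 46.0% and 40.8% against 54.3% and 50.4%. In control, RB1 and RBL2 stood at levels that overlapped. In miRs, RB1 lay above RBL2 in both libraries. The ratio of RBL2 to RB1 was 0.875 and 1.10 in control and 0.555 and 0.711 in miRs, and that of RBL2 to RBL1 was 2.90 and 3.17 against 1.94 and 2.59. These ratios were chosen after the values were seen, and with 2 libraries against 2 an exact permutation test could not go below p = 0.333.

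**Figure D1:**
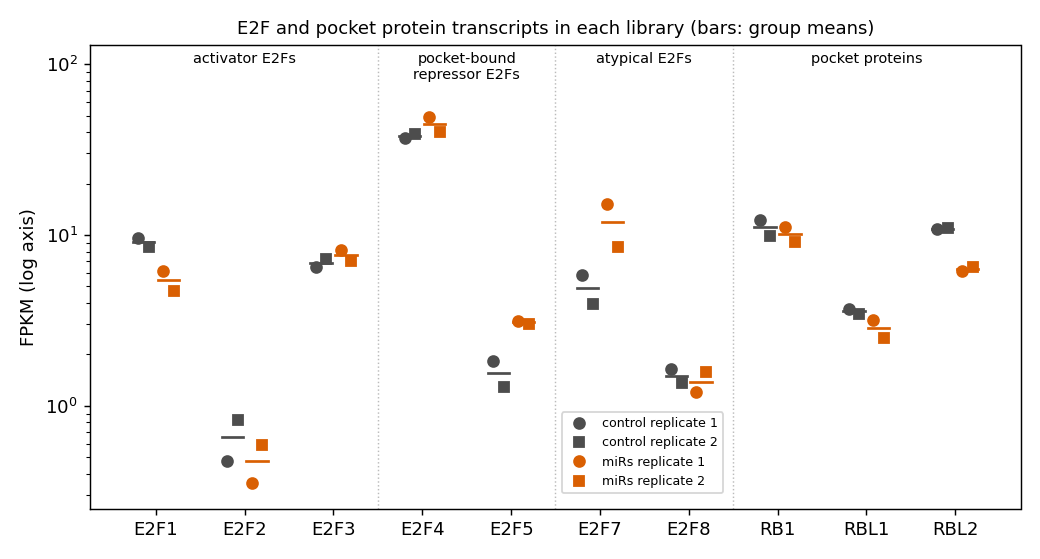
FPKM of the 10 members on a log axis, with circles for replicate 1, squares for replicate 2, grey for control, orange for miRs and bars for group means. Both miRs libraries lay below both controls for RBL2, E2F1 and RBL1 (30.0% of all tested genes). They lay above both for E2F4, E2F5 and E2F7 (29.5% of all tested genes). E2F4 stood highest in every library.

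Among the activators, E2F1 was at 9.63 and 8.53 FPKM in controls and at 6.15 and 4.72 FPKM with miRs. Both miRs libraries lay below both controls, with miRs replicate 2 the lower. The mean was 1.67-fold lower (log2 difference −0.65 ± 0.17, adjusted p = 0.127 in limma, from 0.0387 to 0.703 over the alternatives). Without miRs replicate 1 the adjusted p was 0.0387, in a fit that called 13.9% of all tested genes.

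E2F3, whose gene-level value joins the activating form E2F3a and the shorter E2F3b, was at 6.52 and 7.24 FPKM in controls and at 8.15 and 7.07 FPKM with miRs (log2 difference 0.13 ± 0.14, adjusted p = 0.622 in limma, and from 0.04 to 0.22 with a library left out). The groups overlapped. E2F2 was under the minimum of 1 FPKM in its mean. It was at 0.477 and 0.830 FPKM in controls and 0.355 and 0.591 FPKM with miRs, with replicate 2 the higher library in both groups. In a fit with no minimum its log2 difference was −0.16 ± 0.16 (adjusted p = 0.609 in limma). The 3 activators together were at 16.6 and 16.6 FPKM in controls and 14.7 and 12.4 FPKM with miRs. E2F1 and E2F3 both have a promoter window with a consensus match, though another window of E2F3 has none. E2F1 lay lower with miRs and the groups of E2F3 overlapped, and the difference between the genes was not tested.

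E2F4, the main E2F of resting cells, was the most abundant member in every library. It was at 36.8 and 39.1 FPKM in controls and 48.8 and 40.1 FPKM with miRs, and made up 58.7% to 62.8% of the summed FPKM of the 7 E2F genes. miRs replicate 1 stood apart from the other 3, and the group difference was small (log2 difference 0.22 ± 0.15, adjusted p = 0.424 in limma). Leaving out miRs replicate 1 gave 0.08, and leaving out miRs replicate 2 gave 0.35.

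E2F5, the closest relative of E2F4, was at 1.84 and 1.28 FPKM in controls and at 3.14 and 3.01 FPKM with miRs. The miRs libraries agreed closely and both lay above both controls. The mean was 1.97-fold higher (log2 difference 0.68 ± 0.19, adjusted p = 0.135 in limma, from 0.0637 to 0.708 over the alternatives). The log2(FPKM + 1) scale understates the change of a gene at this level.

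E2F7, an atypical repressor that is itself induced in S phase, had the largest log2 difference of the members. It was at 5.81 and 3.96 FPKM in controls and at 15.2 and 8.55 FPKM with miRs. Both miRs libraries lay above both controls, and miRs replicate 1 was far above miRs replicate 2. The mean was 2.43-fold higher (log2 difference 1.10 ± 0.32, adjusted p = 0.144 in limma). Relative to the mean of the controls, miRs replicate 1 was 1.48 higher and miRs replicate 2 was 0.72 higher on the log2 scale, and the gap between the controls was 0.46. The adjusted p ranged from 0.0188 to 0.666 over the alternatives and was 0.0188 without miRs replicate 2, in a fit that called 31.6% of all tested genes.

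E2F8, which often acts together with E2F7, was at 1.63 and 1.36 FPKM in controls and at 1.20 and 1.57 FPKM with miRs (log2 difference −0.07 ± 0.19, adjusted p = 0.845 in limma). The groups overlapped, and the sign of the difference turned without miRs replicate 1 (0.04) and without control replicate 1 (0.0091). The difference between E2F7 and E2F8 was not tested.

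**Figure D2:**
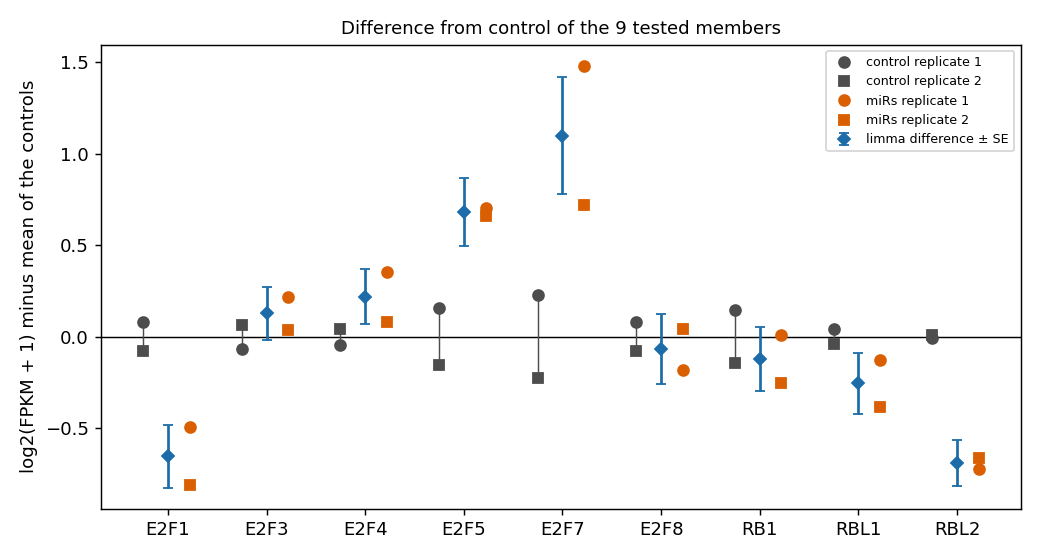
Difference of each library from the mean of the controls on the log2(FPKM + 1) scale for the 9 tested members, with diamonds for the limma difference and bars for its SE. The miRs points of RBL2 (−0.72 and −0.66) and E2F5 (0.70 and 0.66) lie close together, and those of E2F7 (1.48 and 0.72) far apart.

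The order of the levels differed between the groups. In control the means ran from E2F4 (38.0 FPKM) through RB1 (11.1), RBL2 (10.8), E2F1 (9.08), E2F3 (6.88), E2F7 (4.88), RBL1 (3.57), E2F5 (1.56) and E2F8 (1.4985) to E2F2 (0.653). The neighbours RB1 and RBL2, and E2F5 and E2F8, had overlapping libraries. In miRs the means ran from E2F4 (44.5 FPKM) through E2F7 (11.9), RB1 (10.1), E2F3 (7.61), RBL2 (6.33), E2F1 (5.44), E2F5 (3.08), RBL1 (2.84) and E2F8 (1.38) to E2F2 (0.473). There E2F7 overlapped RB1, and E2F5 overlapped RBL1. By the means, E2F7 ranked below E2F1, E2F3 and RBL2 in control and above them in miRs, and E2F1 ranked above E2F3 in control and below it in miRs.

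The ratio of E2F1 to E2F7, an activator over a repressor known to bind the E2F1 promoter, was 1.66 and 2.16 in control and 0.404 and 0.552 in miRs. This ratio was also chosen after the values were seen, from a member that lay lower and a member that lay higher with miRs. E2F1 was the more abundant of the pair in both controls and E2F7 in both miRs libraries. Summed, E2F7 and E2F8 were at 7.45 and 5.32 FPKM in controls and 16.4 and 10.1 FPKM with miRs.

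**Figure D3:**
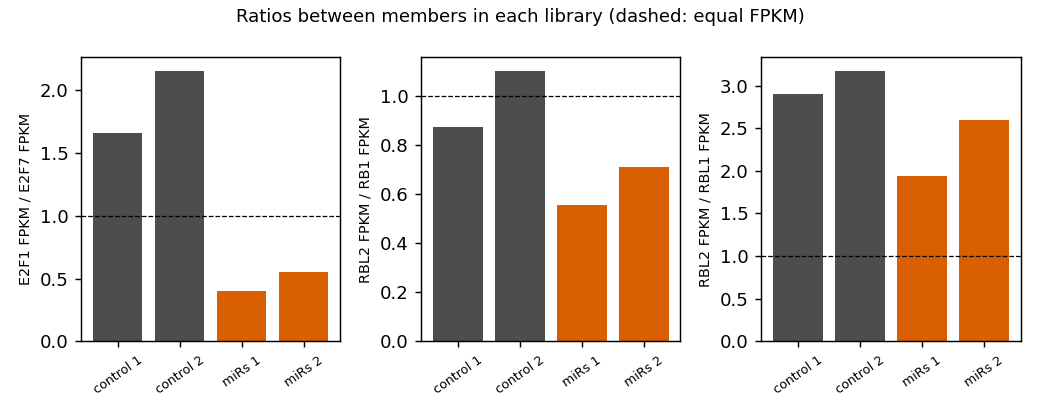
Ratios of FPKM between members in each library, chosen after the values were seen. Grey bars are for control and orange bars for miRs, with a dashed line at equal levels. E2F1 over E2F7 is above 1 in both controls (1.66 and 2.16) and below 1 in both miRs libraries (0.404 and 0.552), and RBL2 over RB1 and over RBL1 is lower in both miRs libraries than in either control.

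The other genes of the pathway were taken from 7 lists. In limma 0 genes of any list passed over all genes. The counts that follow give groups that do not overlap, beside 29.5% above and 30.0% below among all tested genes. Counts at an unadjusted p under 0.05 in limma stand beside 24.2% of all tested genes, either direction (1331 higher and 1541 lower of 11860). Genes of a list are not independent of each other. For the DNA-binding partners and the MuvB complex, 5 of 11 tested genes lay above and 2 below both controls. The median was 0.21 (log2 difference; from 0.11 without control replicate 2 to 0.33 without control replicate 1 when a library was left out), with 4 genes at an unadjusted p under 0.05. MYBL2 (B-MYB), which joins MuvB in cycling cells and is a known target of the E2F4 complexes, was at 16.5 and 17.3 FPKM in controls and 33.4 and 36.9 FPKM with miRs (log2 difference 1.01 ± 0.13, adjusted p = 0.0663 in limma). FOXM1, the mitotic activator that follows it, was at 26.1 and 27.8 against 40.0 and 38.0 FPKM (adjusted p = 0.110). LIN9, a MuvB subunit, was at 1.70 and 1.73 against 4.36 and 2.93 FPKM (adjusted p = 0.138). For all 3 genes both miRs libraries lay well above both controls.

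MYBL1 (A-MYB) went the other way, at 20.7 and 17.4 FPKM in controls and 16.1 and 10.5 FPKM with miRs (adjusted p = 0.271 in limma). The groups of both expressed DP partners overlapped: TFDP1 was at 59.9 and 60.7 FPKM in controls and 76.1 and 55.3 FPKM with miRs, and TFDP2 at 3.26 and 3.498 against 2.66 and 3.43 FPKM. E2F6, a pocket-independent repressor outside the 10 members, was at 6.58 and 5.40 against 7.55 and 6.58 FPKM, with control replicate 1 and miRs replicate 2 almost equal. TFDP3 was listed at 0 in every library. Without miRs replicate 1 the log2 difference was 1.08 for MYBL2, 0.48 for FOXM1, 0.53 for LIN9 and −0.80 for MYBL1. Without miRs replicate 2 it was 0.94, 0.55, 0.98 and −0.22 in that order.

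A list of 10 genes held kinases that act on the pocket proteins, their cyclins and a phosphatase that activates the kinases. Of these, 3 lay above and 1 below both controls, with 2 at an unadjusted p under 0.05 (both higher). The median was −0.0081 (−0.23 without miRs replicate 1, 0.25 without miRs replicate 2, 0.11 without control replicate 1 and −0.06 without control replicate 2). Cyclin A2 (CCNA2) was at 25.9 and 23.8 FPKM in controls and 44.4 and 41.7 FPKM with miRs (log2 difference 0.77 ± 0.13, adjusted p = 0.0822 in limma). CDC25A, a phosphatase that activates these kinases and an E2F target, was at 3.14 and 2.89 against 10.8 and 7.04 FPKM (log2 difference 1.28 ± 0.23, adjusted p = 0.0863). Both lay well above the controls in each miRs library.

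The G1 kinases CDK4 and CDK6 phosphorylate pocket proteins with D cyclins. CDK6 was at 11.3 and 10.6 FPKM in controls and 13.1 and 18.5 FPKM with miRs (adjusted p = 0.236 in limma), and CDK4 at 83.1 and 82.7 against 71.98 and 88.7 FPKM (adjusted p = 0.853). Cyclin D1 (CCND1) was at 414 and 304 against 269 and 126 FPKM (log2 difference −0.94 ± 0.40, adjusted p = 0.245). Leaving out miRs replicate 1 gave −1.48, and leaving out miRs replicate 2 gave −0.40. CCND1 lay below in both miRs libraries, with each pair wide apart. Without miRs replicate 1, CDC25A (adjusted p = 0.0282 in limma), CCND1 (0.0282), CCNA2 (0.0306) and CDK6 (0.0352) passed, and without miRs replicate 2, CDC25A (0.0074) and CCNA2 (0.0148).

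Among the 7 inhibitors of these kinases, 0 lay above and 3 below both controls, with 2 at an unadjusted p under 0.05 (both lower) and a median of −0.18 (−0.45 without miRs replicate 1 and −0.26 without miRs replicate 2). CDKN1A (p21), which keeps pocket proteins active after p53 signalling, was at 527 and 529 FPKM in controls and 197 and 310 FPKM with miRs (log2 difference −1.09 ± 0.24, adjusted p = 0.102 in limma). The controls were nearly equal and both miRs libraries far below. CDKN2B (p15) was at 2.31 and 2.45 against 0.878 and 1.47 FPKM (adjusted p = 0.167), and CDKN2D (p19) at 5.75 and 6.31 against 5.71 and 2.59 FPKM (adjusted p = 0.389), where miRs replicate 2 alone stood apart. CDKN2A, which encodes the CDK4 inhibitor p16 and, in another reading frame, p14ARF, was at 18.3 and 13.7 against 31.0 and 18.02 FPKM (adjusted p = 0.332), with overlapping groups. Leaving out miRs replicate 1 gave log2 differences of −0.77 for CDKN1A, −0.45 for CDKN2B, −0.97 for CDKN2D and 0.18 for CDKN2A. Leaving out miRs replicate 2 gave −1.42, −0.85, −0.06 and 0.93 in that order.

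Known E2F targets of G1 and S phase had a higher mean log2 level with miRs in 29 of 36 genes, beside 5902 of all 11860 tested genes. Of the 36, 18 lay above and 1 below both controls. In either direction 10 had an unadjusted p under 0.05 in limma, close to the 24.2% of all tested genes. All 10 were higher, beside 1331 of all 11860 tested genes that were higher at that threshold. The median was 0.19 (0.0996 leaving out miRs replicate 1 and 0.33 leaving out miRs replicate 2). Above both controls were 31 of the 36 in miRs replicate 1 (44.1% of all tested genes) and 19 in miRs replicate 2 (42.7%). Below both were 3 in miRs replicate 1 (5282 of all 11860 tested genes) and 10 in miRs replicate 2 (5056). CDC25A, given above, had the smallest p. RFC4, a subunit of the clamp loader, was at 13.7 and 13.0 FPKM in controls and 24.0 and 19.6 FPKM with miRs (adjusted p = 0.105 in limma). Cyclin E2 (CCNE2), which starts S phase with CDK2, was at 3.25 and 3.62 against 3.71 and 1.17 FPKM (log2 difference −0.47 ± 0.40, adjusted p = 0.507). It was low in miRs replicate 2 alone, and without that library the difference was 0.09. Leaving out miRs replicate 1 gave log2 differences of −1.03 for CCNE2 and 0.53 for RFC4. For RFC4 it was 0.80 without miRs replicate 2.

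The next list held genes of G2 and mitosis that the DREAM complex is known to bind. Of 24 genes, 19 lay above and 0 below both controls, 11 had an unadjusted p under 0.05, all higher, and the median was 0.34 (0.30 leaving out miRs replicate 1 and 0.36 leaving out miRs replicate 2). Above both controls were 21 genes in miRs replicate 1 (44.1% of all tested genes) and 20 genes in replicate 2 (42.7%). Below both were 0 in miRs replicate 1 (5282 of all 11860 tested genes) and 3 in replicate 2 (5056). The phosphatase CDC25C was at 4.01 and 3.90 FPKM in controls and 8.22 and 6.90 FPKM with miRs (adjusted p = 0.0890 in limma), the mitotic kinase PLK1 at 36.7 and 32.6 against 52.9 and 54.9 FPKM and the checkpoint kinase TTK at 8.74 and 7.28 against 17.6 and 13.6 FPKM (both adjusted p = 0.0954). ANLN (anillin), a protein of the cleavage furrow, was at 68.9 and 59.1 against 63.0 and 51.7 FPKM and the only one with a lower mean log2 level. Leaving out miRs replicate 1 gave log2 differences of 0.67 for CDC25C, 0.65 for PLK1, 0.71 for TTK and −0.30 for ANLN. Leaving out miRs replicate 2 gave 0.90, 0.60, 1.05 and −0.02 in that order.

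Of the apoptosis genes known as E2F targets, 7 of 8 were tested, but BCL2L11 reached the minimum only through the miRs libraries. Of the 6 whose control mean reached it, 3 lay above and 0 below both controls, 1 had an unadjusted p under 0.05, and the median was 0.53 (0.098 leaving out miRs replicate 1 and 0.78 leaving out miRs replicate 2). BBC3 (PUMA), a BH3 protein that triggers mitochondrial death, was at 5.95 and 6.24 FPKM in controls and 13.4 and 23.8 FPKM with miRs (log2 difference 1.42 ± 0.29, adjusted p = 0.0936 in limma). BCL2L11 (BIM), another BH3 protein, was at 0.240 and 0.495 against 1.47 and 1.96 FPKM, and is given by its values only. APAF1, the scaffold of the apoptosome, was at 5.997 and 5.96 against 6.32 and 4.97 FPKM, with overlapping groups. BBC3 passed without miRs replicate 1 (adjusted p = 0.0097 in limma) and without miRs replicate 2 (0.0121).

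Chromatin partners of the pocket proteins lay on both sides of control. Of 12, 3 lay above and 3 below both controls, 0 had an unadjusted p under 0.05, the smallest adjusted p was 0.268 in limma, and the median was 0.07 (0.01 to 0.05 with a library left out). ARID4A, an RB1-binding subunit of the SIN3 complex, was at 3.36 and 3.13 FPKM in controls and 2.19 and 2.53 FPKM with miRs, its relative ARID4B at 6.12 and 6.29 against 5.66 and 4.45 FPKM, and the histone demethylase KDM5A at 5.96 and 6.64 against 8.07 and 7.48 FPKM.

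**Figure D4:**
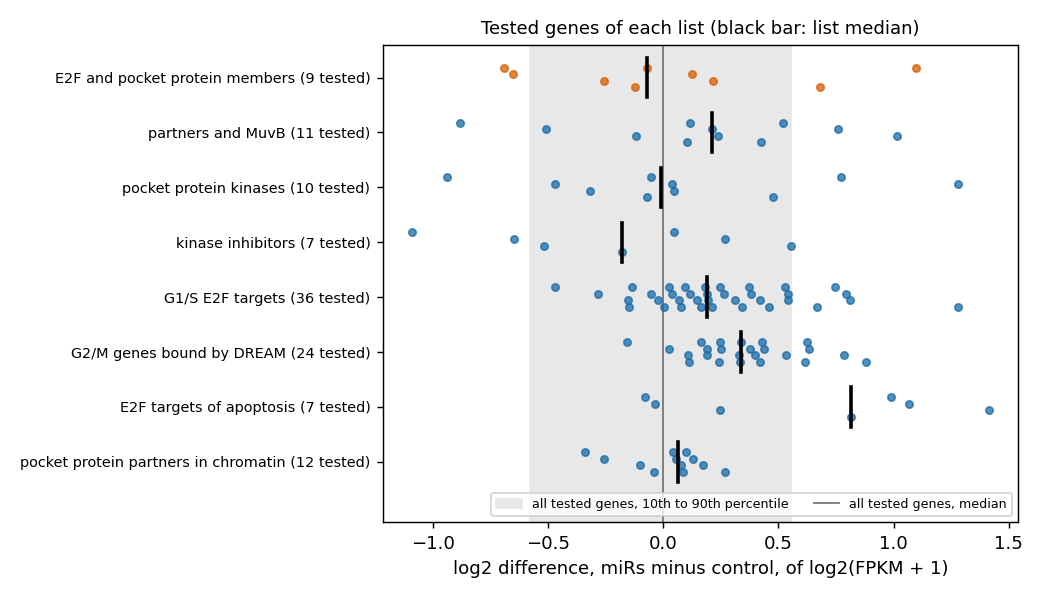
Log2 difference, miRs minus control, of each tested gene in the families and the 7 pathway lists, with black bars for list medians and grey for the 10th to 90th percentile of all tested genes (−0.58 to 0.56). Members lie on both sides of zero. Above it lie 23 of 24 G2 and mitosis genes, and 5902 of all 11860 tested genes. The apoptosis list is drawn with all 7 tested genes (median 0.82). They include BCL2L11, which reached the minimum only through the miRs libraries.

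The 3 genes outside the families whose values over the 4 libraries were most like those of RBL2, each relative to its own mean in control, were PTGES, a prostaglandin E synthase, NAA38, a subunit of an N-terminal acetyltransferase, and LPCAT2, a lysophosphatidylcholine acyltransferase. Their Euclidean distances from RBL2 were 0.030, 0.045 and 0.046 on the log2(FPKM + 1) scale. PTGES was at 2.80 and 2.83 FPKM in controls and at 1.35 and 1.44 FPKM with miRs. By mean FPKM, PTGES was 2.02-fold, NAA38 1.67-fold and LPCAT2 1.99-fold lower in miRs, against 1.71-fold for RBL2. The log2(FPKM + 1) scale understates the change of genes as low as PTGES and LPCAT2. With 4 libraries many genes can share such a pattern.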

How the data were processed

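Each deposited file gives an FPKM value for every gene of 1 library, per the file headers. Per the labels' protocols, RNeasy columns served to purify RNA, and a TruSeq Stranded mRNA kit made the libraries. Cuffdiff 2.2.1, TopHat2 2.1.1, SAMtools 0.1.18 and Bowtie2 2.2.8 stand in the submitters' processing notes, with the build hg19. Not given in the sources used here are the annotation, the strand setting and how libraries were scaled. The absolute depth is unknown and no counts were used, so precision rests on 2 libraries per group.

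Genes that averaged 1 FPKM or more were tested with limma 3.58.1 (R 4.3.3; moderated variance with a trend, 2-sided) on log2(FPKM + 1), adjusted by Benjamini-Hochberg over all of them, after the test had been tested on simulated data. The members and lists were chosen with earlier results of these data known. All members were named, and from each list up to 3 genes with the smallest p whose groups do not overlap, the gene against its list's majority with the smallest p, and E2F6, TFDP1, TFDP2, CDK4, CDK6, CCND1, CDKN1A and CDKN2A. TFDP3, fibroblast markers given by name, the ratios between members and a control minimum for apoptosis genes were chosen after values were seen. Some items that this rule names are not reported here. Sequences were searched in Python 3.11.15, in RefSeq (GRCh38.p14) and GENCODE 29 tables. That build differs from hg19, so no coordinates were joined to the files. Alternatives were other pseudocounts, minimums, scalings and variance models, a replicate block and each library left out.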

Additional observations from a re-analysis of the deposited data

How the results depend on the processing

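The members' count of 0 calls in limma held under 7 of the alternatives beside the left-out libraries: the replicate block, quantile normalization, a minimum mean of 5 FPKM or none, a variance with no trend, a pseudocount of 0.1, and rescaling by the median of ratios. It ranged from 0 to 2 with a library left out. At an unadjusted p under 0.05 in limma there were 4 of 9 members in the fit as reported, beside 2872 of all 11860 tested genes. With all libraries kept there were 4 members in each alternative but the minimum mean of 5 FPKM. That minimum gave 3 of 6 members, beside 2128 of all 8444 tested genes. With a library left out, both the members' count and that over all genes moved. Over all genes the count of 29 calls became 0 with no minimum FPKM (3338 genes at an unadjusted p under 0.05), 6 with quantile normalization and 99 with the replicate block, and ranged from 0 to 3746 with a library left out. The cause was not tested. Numbers are shared between groups only as names. Deviations of same-numbered libraries correlated at 0.20 over the genes tested, with 2 pairs.

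Of 96 values of members under the alternatives, 88 kept their direction and their side of the threshold, 4 passed it and 4 turned. With 1 library left out the log2 difference ranged from −0.18 to 0.043 for E2F8 and from −0.27 to 0.022 for RB1. Among the other named genes it ranged from −1.03 to 0.088 for CCNE2, from −0.22 to 0.069 for APAF1, from −0.12 to 0.33 for TFDP1, from −0.26 to 0.019 for TFDP2 and from −0.20 to 0.10 for CDK4.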
